A study of Homo sapiens with 12 samples.

Results

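The androgen response of LNCaP cells without Torin 1 was read from 6 of the 12 Illumina HumanHT-12 V4 arrays of the series, chosen by their titles: 3 arrays of cells given R1881 and 3 of cells given the solvents alone. R1881 (metribolone) is a synthetic androgen that cells metabolize slowly. LNCaP is a human prostate cancer line, grown from a lymph node metastasis, with a mutated but active androgen receptor. Before treatment both groups spent 48 h in RPMI without phenol red and with charcoal-stripped serum, so every vehicle array is of cells deprived of steroids. The R1881 group then had 10 nM of the androgen for 48 h, and the vehicle group had ethanol and DMSO for the same time. The other 6 arrays are of cells given 100 nM of the mTOR inhibitor Torin 1 with or without R1881. They enter here through the joint normalization, the detection filter, the choice of probe and the shared estimate of the spread. They also enter through a comparison near the end. The arrays are of 1 cell line at 1 dose and 1 time, and nothing in the labels ties the replicates to separate cultures: p-values then measure only the spread among these samples, which may be technical.

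Androgen crosses the cell membrane and binds the androgen receptor, a nuclear receptor that then enters the nucleus and binds DNA as a dimer at androgen response elements, many of them far from gene starts. In luminal cells of the prostate this programme drives the secretion of seminal fluid proteins and sustains differentiation, and in prostate cancer it also sustains growth. Its best known targets are the kallikreins, TMPRSS2 and FKBP5, so the account below is ordered by cell function and turns mostly on other families.

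Of 47323 probes, 20413 were detected (detection p under 0.05) on at least 3 of the 12 arrays, and the brightest detected probe of each named gene gave 11517 tested genes. Of these 82 were detected on none of the 6 arrays compared here. A filter of detection on at least 3 of those 6 arrays gave 10593 tested genes. The R1881 arrays detected between 16837 and 17829 probes and the vehicle arrays between 17683 and 18868 (exact two-sided permutation p = 0.3, where 3 arrays against 3 allow no p under 0.1). With 3 arrays a group, their number sets the precision. The median SD of a gene between arrays was 0.112 log2 with R1881 and 0.105 log2 with vehicle, and arrays of a group correlated with r of at least 0.9918 with R1881 and 0.9937 with vehicle. The luminal keratins KRT8 and KRT18 and the lineage factors FOXA1 and HOXB13 were detected on all 6 arrays.

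R1881 moved 4289 genes at an adjusted p under 0.05, which is 37.2% of those tested: 1818 were higher (15.8%) and 2471 lower (21.5%). The shares of a gene list are read against these. The balance depends on how arrays were scaled: with median scaling over the kept probes 2274 genes were higher and 2006 lower, and with median scaling over all probes, which shifts the median change of all genes to -0.18, 848 were higher and 3719 lower. Where a scaling turns or evens the balance of a list, its counts of rises and then of falls under scaling stand beside the main ones. Medians of several lists are also given relative to the median of all genes, which was -0.034 in log2. Most changes were small. The median size of a called change was 0.469 in log2, and 284 genes rose and 238 fell by at least 2-fold. The far end held more rises than falls, with 69 genes up and 38 down by at least 4-fold, and 27 up and 6 down by at least 8-fold. For 5474 genes (47.5%) the R1881 and vehicle arrays had no overlap in level.

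**Figure D1:**
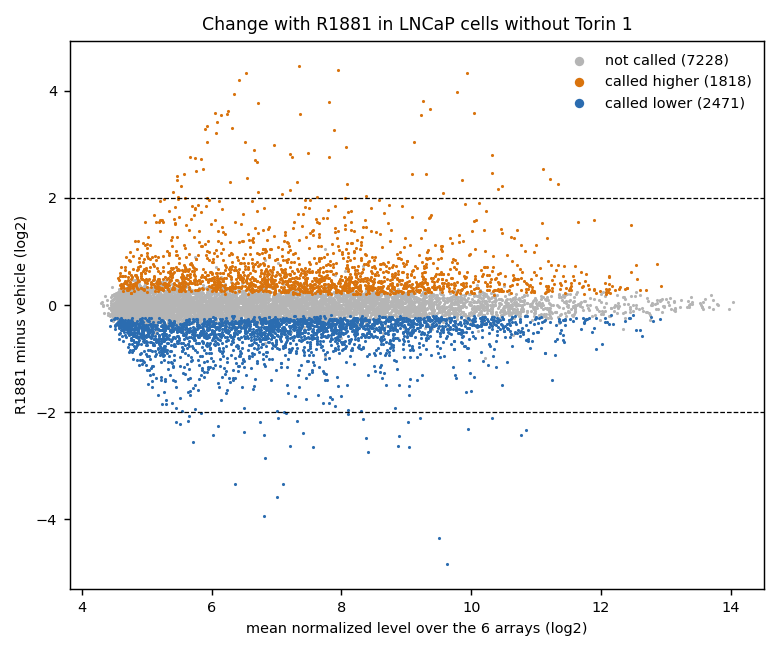
Change with R1881 (log2, R1881 minus vehicle) against mean log2 level for all 11517 tested genes, with genes called higher in orange, called lower in blue and the rest in grey. The 69 genes up at least 4-fold and the 38 down at least 4-fold lie outside the dashed lines.

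The largest rises outside the kallikreins and tubulins included genes of varied functions. RHOU, an atypical small GTPase of cell shape, stood at 11.75, 11.84 and 11.90 (log2) with R1881, against 8.19, 8.21 and 8.33 with vehicle. It rose 12-fold (log2 3.58 ± 0.0843 SE, adjusted p = 1.46e-12). HPGD, which inactivates prostaglandins, stood at 8.03, 7.96 and 8.08 (log2) with R1881, against 4.44, 4.36 and 4.59 with vehicle. No vehicle array detected HPGD, and it was at least 9.99-fold higher. MAF, a leucine zipper transcription factor, rose 11.8-fold (log2 3.57 ± 0.0975 SE, and 1.06 in log2 on its other kept probe). SLC45A3 (prostein), a carrier of the prostate epithelium, rose 12.7-fold. NCAPD3, a condensin II subunit, rose 9.62-fold, NDRG1 20.2-fold, and GNMT, which methylates glycine, 22.2-fold. HERC3, a HECT ubiquitin ligase, rose 8.27-fold, TMEM79 8.26-fold and TM4SF1, a tetraspan membrane protein, 7.88-fold. For each of these genes all 3 R1881 arrays lay above all 3 vehicle arrays. Orosomucoid genes ORM1 and ORM2, which encode plasma acute phase proteins, stood at least 12.2-fold higher (ORM1) and at least 8.53-fold higher (ORM2), but the copies are alike enough that their probes may share transcripts.

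Below them, rises between 4-fold and 8-fold named further receptors and kinases. The prostaglandin E2 receptor PTGER4 read 8.11, 8.09 and 8.10 (log2) with R1881, against 5.17, 5.34 and 5.09 with vehicle. It rose 7.46-fold (log2 2.90 ± 0.091 SE, adjusted p = 2.6e-11). MERTK, a receptor tyrosine kinase of cell clearance, rose 7.07-fold (1.83 in log2 on its other kept probe), and the magnesium carrier SLC41A1 7.17-fold. The elongation factor ELL2 and its partner EAF2, chosen after their values were seen, rose 6.8-fold and 6.41-fold. INPP4B, a phosphatase of phosphoinositides, was detected on 3 R1881 and 2 vehicle arrays and rose 5.81-fold.

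The large falls also came from genes of varied functions. LTN1, the ubiquitin ligase of stalled ribosomes, stood at 5.95, 5.88 and 5.84 (log2) with R1881, against 8.47, 8.46 and 8.64 with vehicle. It fell 6.22-fold (log2 -2.64 ± 0.101 SE, adjusted p = 1.85e-10), and its other kept probes read between -2.50 and -0.99 in log2. BARD1, the partner of BRCA1, read 7.14, 7.09 and 7.17 (log2) with R1881, against 9.61, 9.72 and 9.51 with vehicle. It fell 5.57-fold (log2 -2.48 ± 0.0742 SE, adjusted p = 1.6e-11). DIO1, the deiodinase that converts thyroxine to triiodothyronine, read 4.74, 5.12 and 5.07 (log2) with R1881, against 7.16, 7.36 and 7.19 with vehicle and fell 4.8-fold, with -2.39 and -1.11 in log2 on its other kept probes. The choline carrier SLC44A1 fell 5.01-fold. The protein kinase A inhibitor PKIB read 5.62, 5.76 and 5.55 (log2) with R1881, against 7.76, 7.69 and 8.05 with vehicle and fell 4.56-fold. The scavenger chemokine receptor ACKR3 read 9.28, 9.27 and 9.26 (log2) with R1881, against 11.28, 11.44 and 11.40 with vehicle and fell 4.3-fold. DDC, which makes dopamine and serotonin, fell 20.3-fold, the kappa opioid receptor OPRK1 10.1-fold and the signalling adaptor GRB10 6.72-fold. UGT2B17 and UGT2B15, which glucuronidate androgens, fell 5.36-fold and 4.98-fold, and as close copies they may share probe signal. Neural genes included the synaptic adhesion gene SLITRK3, which fell 5.24-fold, and neuroserpin SERPINI1, 5.18-fold (-1.16 in log2 on its other kept probe). All 3 R1881 arrays lay below all 3 vehicle arrays for each of these genes. TMEM38B and PTPRR fell 5.43-fold and 5.35-fold on their brightest probe, while their other kept probe gave only -0.27 and -0.09 in log2.

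**Figure D2:**
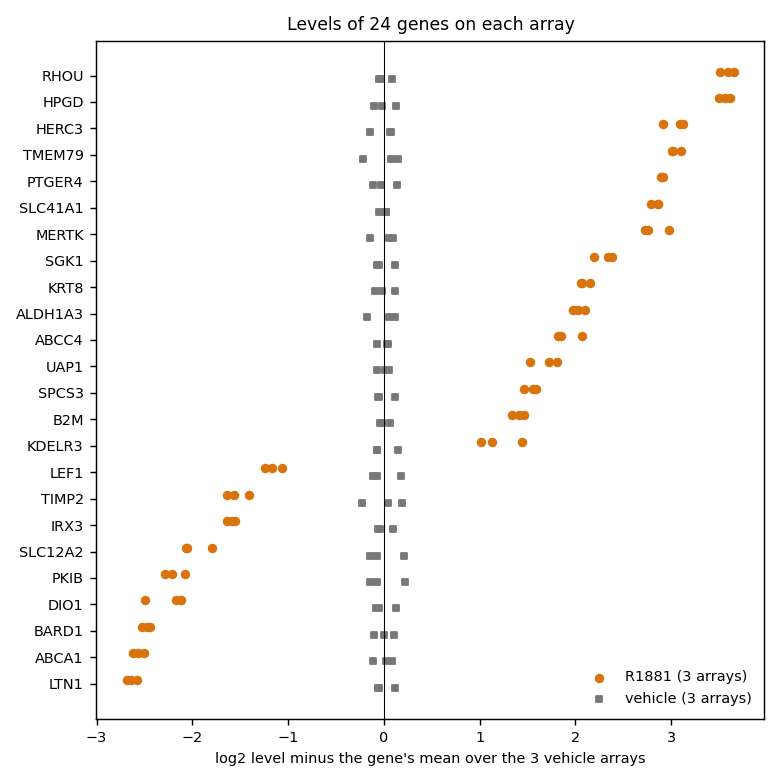
Normalized log2 level of 24 genes on each array, less that gene's own mean over the 3 vehicle arrays, with R1881 arrays as orange circles and vehicle arrays as grey squares. RHOU, HPGD and PTGER4 lie near the top and LTN1, BARD1 and DIO1 near the bottom, and for the genes plotted the 2 sets of 3 arrays do not overlap.

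Genes of entry into the secretory route were more often higher than lower. Secreted and membrane proteins enter the endoplasmic reticulum (ER) through the SEC61 channel, fold there, leave in COPII-coated vesicles and pass the Golgi, where glycans are trimmed and built up. Of 33 genes of the COPII coat, cargo receptors and ER exit 18 rose and 2 fell, with a median of 0.33 in log2, which lay above that of all genes by 0.29 to 0.38 over the scalings tried. KDELR3, a receptor that returns ER proteins from the Golgi, read 6.94, 6.51 and 6.62 (log2) with R1881, against 5.42, 5.42 and 5.64 with vehicle. It rose 2.3-fold (log2 1.20 ± 0.117 SE, adjusted p = 2.65e-06). The COPII cargo adaptors SEC24B and SEC24D rose 1.82-fold and 1.64-fold, the cargo carriers TMED1 and LMAN1 1.53-fold and 1.6-fold, and SURF4 1.49-fold. For all of these the R1881 arrays lay above the vehicle arrays. In the list of ER entry 14 of 27 rose and 4 fell (median 0.25, 0.22 to 0.32 above all genes over the scalings). The channel subunit SEC61B read 11.47, 11.61 and 11.69 (log2) with R1881, against 10.74, 10.84 and 10.74 with vehicle, with no overlap, and rose 1.77-fold (log2 0.82 ± 0.0845 SE, adjusted p = 4.51e-06). SPCS3, a subunit of signal peptidase, rose 2.9-fold and SRP19 of the signal recognition particle 1.72-fold, while CAMLG, which receives tail-anchored proteins, fell 1.52-fold. With median scaling over all probes 10 of the COPII list were higher and 3 lower, and 8 of the ER entry list higher and 4 lower. Falls among COPII and ER exit genes numbered 1 without R1881 replicate 1, 2 or 3 or vehicle replicate 1 or 3. Falls among ER entry genes numbered 2 without R1881 replicate 2 or 3 and 1 without vehicle replicate 2 or 3.

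Lists of ER folding and glycosylation also held more rises than falls. Of 21 disulfide isomerases and their helpers 9 rose and 1 fell (median 0.24, 0.18 to 0.28 above all genes). PDIA5, a disulfide isomerase, read 9.08, 8.99 and 8.99 (log2) with R1881, against 7.19, 7.21 and 7.39 with vehicle. It rose 3.38-fold (log2 1.76 ± 0.083 SE, adjusted p = 1.6e-09), TXNDC16 rose 1.99-fold and the oxidase ERO1A 2.37-fold. Among 23 genes that remove misfolded proteins from the ER 10 rose and 3 fell (median 0.14, 0.06 to 0.18 above all genes). The ER ubiquitin-conjugating enzyme UBE2J1 rose 2.61-fold, the mannosidase EDEM3 2.33-fold and SELENOS 1.77-fold. Of 33 genes of N-glycan assembly and transfer 15 rose and 0 fell, all but 1 by less than 1.5-fold (median 0.20, 0.13 to 0.24 above all genes). DPM3, which anchors dolichol-phosphate-mannose synthase, rose 1.58-fold, and RPN1 of the oligosaccharyltransferase 1.4-fold. With median scaling over all probes 5 of the disulfide isomerase list were higher and 3 lower. In the ER degradation list 5 were then higher and 3 lower, with a median of -0.04 there and of 0.04 in the authors' deposited table of processed values. In the N-glycan list 3 were then higher and 2 lower, with a median of 0.01. Falls among disulfide isomerases numbered 0 without R1881 replicate 1. Falls among ER degradation genes numbered 0 without R1881 replicate 2 or vehicle replicate 2. Falls among N-glycan genes numbered 1 without R1881 replicate 1.

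**Figure D3:**
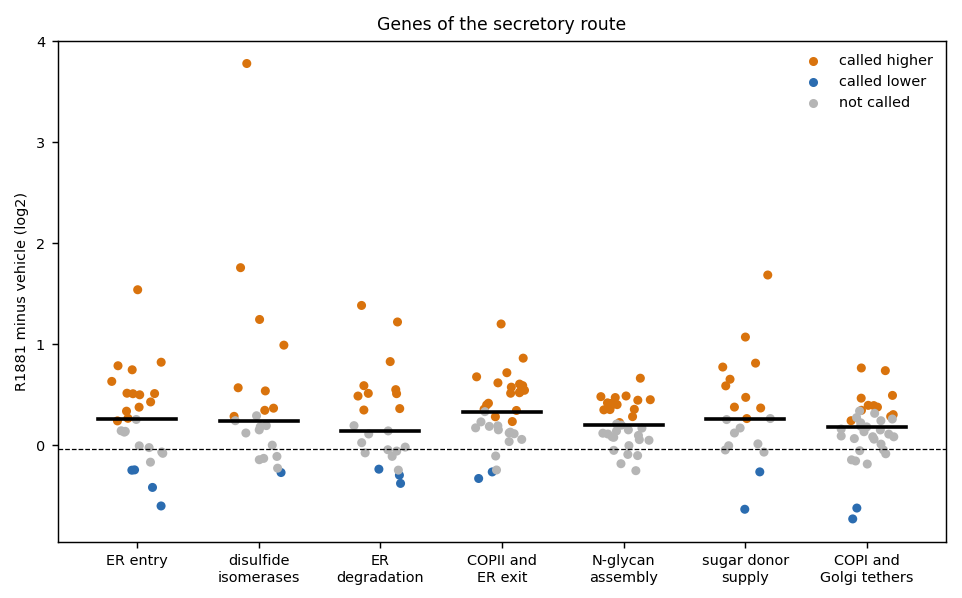
Change with R1881 (log2) of each tested gene along the secretory route, by list, with genes called higher in orange, called lower in blue and not called in grey, and a black bar at the list's median. The medians run from 0.14 for ER degradation to 0.33 for COPII and ER exit, against a median of -0.03 over all genes (dashed line).

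Genes for the sugar donors of glycans also rose more often than they fell. Among 20 genes of nucleotide sugar supply 10 rose and 2 fell (median 0.26, 0.17 to 0.32 above all genes), and 6 of the rises were of at least 1.5-fold. With median scaling over all probes 6 of this list were higher and 2 lower. UAP1, which makes UDP-N-acetylglucosamine, stood at 10.26, 10.06 and 10.34 (log2) with R1881, against 8.55, 8.59 and 8.47 with vehicle. It rose 3.21-fold (log2 1.68 ± 0.0937 SE, adjusted p = 8.59e-09). CMAS, which activates sialic acid, rose 1.76-fold, and the GDP-mannose genes GMPPB and GMPPA 2.1-fold and 1.71-fold, with 0.04 to 1.17 in log2 on the other kept probes of GMPPB. GALK1, galactokinase, fell 1.55-fold. Of 24 genes of the SLC35 family, some of which bring such donors into the Golgi, 6 rose and 2 fell (2 and 5 under median scaling over all probes, 8 and 2 over the kept probes, median 0.15). SLC35F2, a member that takes up the drug YM155, rose 3.69-fold. Falls among sugar donor genes numbered 1 without R1881 replicate 2 or vehicle replicate 2 or 3. The glycosyltransferases that use these donors moved both ways, with 16 of 72 up and 17 down (8 and 20 under median scaling over all probes, 20 and 15 over the kept probes). The sialyltransferase ST6GALNAC1 read 7.60, 7.29 and 7.49 (log2) with R1881, against 4.47, 4.28 and 4.47 with vehicle. It was detected on no vehicle array and was at least 6.74-fold higher. GCNT2, which branches glycans into the I antigen, rose 2.26-fold, and HS3ST1, a heparan sulfotransferase, 1.96-fold. The polysialyltransferase ST8SIA4 was at least 1.61-fold lower, detected on no R1881 array, GALNT18 fell 1.69-fold and ST3GAL1 1.88-fold.

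At the Golgi and beyond, 11 of 37 COPI and tether genes rose and 2 fell (3 and 5 under median scaling over all probes, 14 and 2 over the kept probes, median 0.18, 0.12 to 0.21 above all genes). The coat paralogs parted: COPG1 rose 1.7-fold (log2 0.76 ± 0.101 SE, adjusted p = 4.73e-05) and COPG2 fell 1.54-fold (log2 -0.62 ± 0.148 SE, adjusted p = 0.00454). COG5 rose 1.67-fold and GOLIM4 fell 1.66-fold. RAB GTPases, the switches of vesicle traffic, split 10 up and 11 down of 47 (6 and 16 under median scaling over all probes, 11 and 7 over the kept probes). RAB4A, of fast endosomal recycling, read 8.61, 8.51 and 8.60 (log2) with R1881, against 7.11, 7.28 and 7.26 with vehicle and rose 2.56-fold (log2 1.36 ± 0.0778 SE, adjusted p = 1.15e-08). RAB3B, of regulated secretion, rose 2.83-fold with detection on 2 vehicle arrays, RAB27A 1.72-fold, and the ER-to-Golgi forms RAB2A and RAB1B 1.61-fold and 1.59-fold. RAB17, of polarized epithelia, fell 1.58-fold, and RAB10 1.44-fold. Falls among RAB genes numbered 7 without vehicle replicate 1. Of 51 SNARE and synaptotagmin genes 10 rose and 6 fell (3 and 10 under median scaling over all probes, 10 and 6 over the kept probes), with the Golgi SNARE GOSR2 up 1.6-fold. Among 41 RAB regulators of the TBC1D and DENND families 4 rose and 13 fell. TBC1D4, which holds back the glucose transporter of muscle and fat, rose 2.31-fold and DENND1B fell 1.95-fold.

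**Figure D4:**
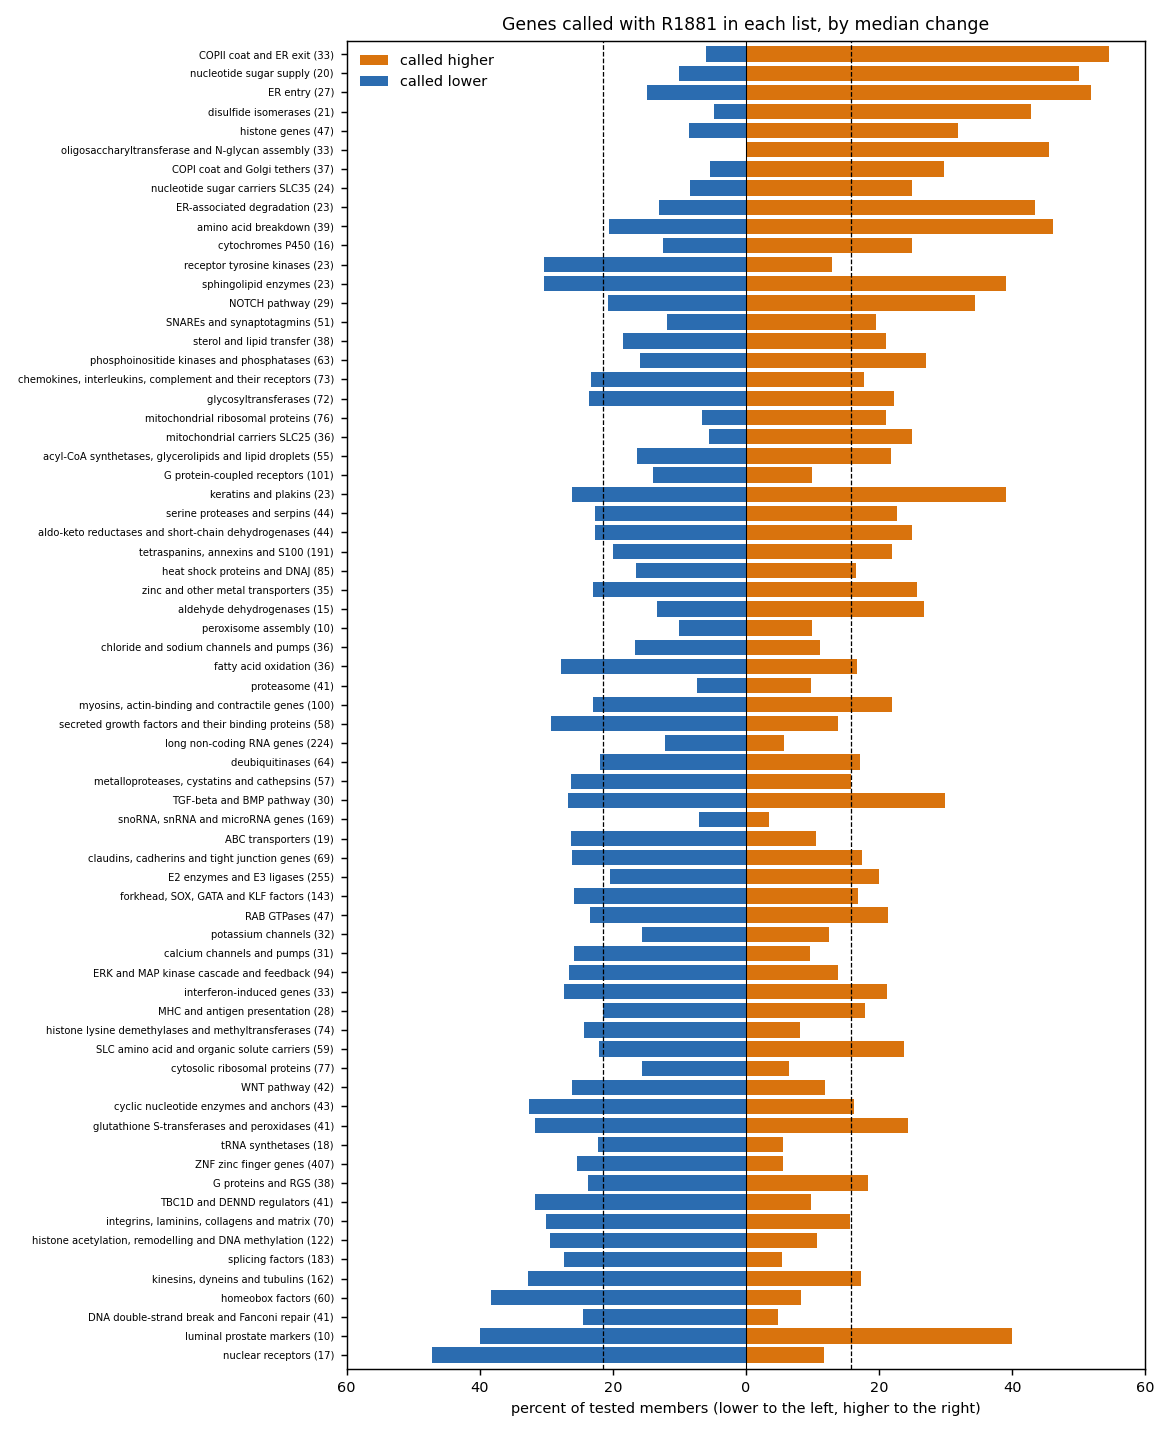
Percent of tested members called higher (orange, right) and lower (blue, left) with R1881 in each gene list with at least 10 tested genes, ordered by median log2 change, with the number tested beside each name. Dashed lines mark the 15.8% higher and 21.5% lower among all tested genes, and the COPII, sugar donor and ER entry lists stand at the top.

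Carriers and channels of the plasma membrane moved gene by gene. Of 35 metal transporters 9 rose and 8 fell (8 and 11 under median scaling over all probes, 10 and 8 over the kept probes). Beside SLC41A1, the zinc importers SLC39A10 and SLC39A6 rose 2.76-fold and 1.72-fold. The zinc exporter SLC30A1 stood at 8.23, 8.20 and 8.13 (log2) with R1881, against 6.77, 6.98 and 6.79 with vehicle. The groups did not overlap, and it rose 2.53-fold. STEAP4, a metalloreductase, was at least 2.5-fold higher, whereas its relative STEAP2 fell 1.45-fold. The zinc and manganese importer SLC39A8 fell 1.54-fold and ferritin light chain FTL 1.38-fold. Of 59 carriers of sugars, amino acids and other organic solutes 14 rose and 13 fell (10 and 21 under median scaling over all probes, 16 and 13 over the kept probes). The peptide carrier SLC15A2 was at least 1.69-fold higher, the glucose carrier SLC2A12 rose 2.38-fold and the amino acid carrier SLC7A8 1.84-fold. SLC38A9, the lysosomal arginine sensor of mTORC1, fell 2.06-fold and the leucine importer SLC7A5 was at least 1.86-fold lower, detected on no R1881 array.

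ABC transporters had 2 of 19 up and 5 down. ABCC4, which exports cyclic nucleotides and prostaglandins, read 10.99, 11.02 and 11.24 (log2) with R1881, against 9.10, 9.21 and 9.20 with vehicle. It rose 3.77-fold (log2 1.91 ± 0.0967 SE, adjusted p = 3.08e-09). ABCA1, the exporter of cholesterol, read 4.50, 4.43 and 4.38 (log2) with R1881, against 6.89, 7.09 and 7.02 with vehicle. It was detected on no R1881 array and was at least 4.74-fold lower. Among 32 potassium channel genes 4 rose and 5 fell (4 and 6 under median scaling over all probes, 6 and 4 over the kept probes). KCNMA1, the large-conductance calcium-activated channel, rose 3.5-fold (0.66 in log2 on its other kept probe), and its relative KCNU1 was at least 3.46-fold lower. KCNS3 and KCNG1, modifier subunits, fell 2.53-fold and 3.01-fold. For calcium channels and pumps the counts were 3 up and 8 down of 31 (2 and 9 under median scaling over all probes, 7 and 8 over the kept probes). TRPM8, the cold and menthol channel, was at least 3.44-fold higher and TRPM4 rose 1.57-fold, while the mitochondrial uniporter MCU fell 1.5-fold and the channel subunit CACNB3 1.45-fold. Of 36 genes for chloride, sodium and proton transport 4 rose and 6 fell (2 and 11 under median scaling over all probes, 5 and 5 over the kept probes). SLC12A2, the sodium, potassium and chloride cotransporter, read 7.50, 7.23 and 7.22 (log2) with R1881, against 9.15, 9.50 and 9.22 with vehicle and fell 3.92-fold (log2 -1.97 ± 0.12 SE, adjusted p = 2.14e-08). Its activating kinase STK39, chosen after its values were seen, rose 5.07-fold (log2 2.34 ± 0.0813 SE, adjusted p = 7.03e-11). The intestinal anion exchanger SLC26A3 was at least 2.38-fold higher, and the sodium pump subunit ATP1B1 and the sodium channel subunit SCNN1A fell 1.94-fold and 1.68-fold.

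Of enzymes that break down amino acids, 18 of 39 rose and 8 fell (median 0.13, 0.12 to 0.22 above all genes over the scalings, with 10 higher and 10 lower under median scaling over all probes). Proline-pathway dehydrogenase ALDH4A1 rose 3.42-fold, with 0.75 to 1.47 in log2 on its other kept probes. MCCC2, of leucine breakdown, read 8.80, 8.87 and 8.79 (log2) with R1881, against 7.83, 7.73 and 7.75 with vehicle and rose 2.07-fold (log2 1.05 ± 0.0795 SE, adjusted p = 2.01e-07). Glutamate dehydrogenase GLUD1 rose 2.39-fold and glutamine synthetase GLUL 1.87-fold. HIBADH, of valine breakdown, read 9.19, 9.07 and 9.19 (log2) with R1881, against 10.32, 10.35 and 10.24 with vehicle. It fell 2.22-fold (log2 -1.15 ± 0.0772 SE, adjusted p = 5.76e-08). GLDC, the glycine decarboxylase, fell 2.19-fold and ASS1, which makes argininosuccinate, 1.5-fold. Of 15 aldehyde dehydrogenases 4 rose and 2 fell. ALDH1A3, which makes retinoic acid, rose 4.1-fold (log2 2.03 ± 0.095 SE, adjusted p = 1.44e-09), and ALDH2 fell 1.67-fold. Among 16 cytochromes P450 4 rose and 2 fell: CYP2U1 rose 3.83-fold, CYP3A5 2.86-fold, and CYP11A1, which starts steroid synthesis from cholesterol, was at least 2.28-fold higher. Falls among cytochromes P450 numbered 1 without R1881 replicate 2 or vehicle replicate 3. The aldo-keto and short-chain dehydrogenases had 11 up and 10 down of 44 (6 and 14 under median scaling over all probes, 11 and 8 over the kept probes), with the xylulose reductase DCXR 1.61-fold higher and the retinol dehydrogenase RDH10 1.41-fold lower. Rises among these dehydrogenases numbered 7 without R1881 replicate 2 and 6 without vehicle replicate 1.

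Lipid genes moved in both directions within each family. Fatty acid oxidation had 6 of 36 genes up and 10 down (6 and 12 under median scaling over all probes, 8 and 8 over the kept probes). Of the rises, the enoyl-CoA isomerase ECI2 read 11.74, 11.81 and 11.85 (log2) with R1881, against 10.57, 10.56 and 10.50 with vehicle and rose 2.38-fold (log2 1.25 ± 0.07 SE, adjusted p = 8.92e-09). The peroxisomal genes CROT, ACOX3 and ACAA1 rose 2.42-fold, 2.02-fold and 1.72-fold, and the carnitine carrier SLC25A20 1.95-fold. Of the falls, PHYH, which starts the oxidation of phytanic acid, fell 1.76-fold, EHHADH 1.66-fold and the mitochondrial HADHB 1.44-fold. Among 55 genes of acyl-CoA, glycerolipids and lipid droplets 12 rose and 9 fell (8 and 15 under median scaling over all probes, 14 and 8 over the kept probes). The cardiolipin synthase CRLS1 rose 2.64-fold, choline kinase CHKA 2.27-fold and PCYT2, of phosphatidylethanolamine synthesis, 1.75-fold, whereas the secreted phospholipase PLA2G2A was at least 3.65-fold lower. For sphingolipid enzymes the counts were 9 up and 7 down of 23 (4 and 10 under median scaling over all probes, 10 and 6 over the kept probes). DEGS1, which makes ceramide from its dihydro form, read 12.38, 12.44 and 12.44 (log2) with R1881, against 10.79, 10.95 and 10.89 with vehicle and rose 2.92-fold (log2 1.55 ± 0.0721 SE, adjusted p = 1.43e-09). The sphingomyelinase SMPD2 rose 2.05-fold, while ceramide kinase CERK was at least 2.13-fold lower and ceramide synthase CERS4 fell 1.64-fold. In sterol and lipid transfer 8 of 38 rose and 7 fell (2 and 8 under median scaling over all probes, 12 and 7 over the kept probes). NPC1, which exports cholesterol from lysosomes, rose 2.81-fold and the lipoprotein receptor VLDLR 2.32-fold, and MYLIP, the ligase that degrades lipoprotein receptors, fell 1.65-fold. Of 10 peroxins 1 rose, PEX10 (4.3-fold, and 0.78 in log2 on its other kept probe), and 1 fell (1 and 3 under median scaling over all probes, 1 and 1 over the kept probes), PEX7 (1.32-fold).

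Of 76 mitochondrial ribosomal protein genes 16 rose and 5 fell (median 0.03), but with median scaling over all probes 4 rose and 10 fell. MRPS18A rose 2.48-fold and MRPS27 fell 1.53-fold. Rises among mitochondrial ribosomal genes numbered 10 without R1881 replicate 2. Falls among mitochondrial ribosomal genes numbered 3 without R1881 replicate 1 or vehicle replicate 3. Of 36 mitochondrial SLC25 carriers 9 rose and 2 fell, with 4 and 5 under median scaling over all probes. The iron carrier SLC25A37 rose 1.8-fold and the aspartate and glutamate carrier SLC25A13 1.52-fold. Falls among mitochondrial carriers numbered 1 without R1881 replicate 1 or 2 or vehicle replicate 2 or 3. Among 41 glutathione and peroxide genes 10 rose and 13 fell (5 and 14 under median scaling over all probes, 13 and 8 over the kept probes). Glutathione reductase GSR read 8.69, 8.66 and 8.42 (log2) with R1881, against 7.52, 7.57 and 7.55 with vehicle. It rose 2.06-fold, whereas the transferase GSTA1 fell 3.37-fold, GSTK1 1.58-fold and GCLC, of glutathione synthesis, 1.66-fold. Cytosolic ribosomal protein genes showed 5 rises and 12 falls of 77 (1 and 13 under median scaling over all probes, 6 and 4 over the kept probes), below both background shares. RPL22 fell 1.44-fold. Rises among cytosolic ribosomal genes numbered 3 without R1881 replicate 2. Falls among cytosolic ribosomal genes numbered 7 without R1881 replicate 2 or 3 and 5 without vehicle replicate 1. Of 18 tRNA synthetase genes 1 rose and 4 fell (0 and 7 under median scaling over all probes, 2 and 2 over the kept probes), with LARS1 1.38-fold and EPRS1 1.37-fold lower.

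Receptors at the cell surface moved in both directions. Of 101 G protein-coupled receptor genes 10 rose and 14 fell (7 and 17 under median scaling over all probes, 19 and 10 over the kept probes). Beside PTGER4, the lysophosphatidic acid receptor LPAR3 rose 3.91-fold (log2 1.97 ± 0.111 SE, adjusted p = 9.5e-09) and the chemokine receptor CXCR4 was at least 1.64-fold higher. ACKR3, which fell 4.3-fold, binds the same chemokine as CXCR4. The adhesion receptor ADGRG6 fell 2.61-fold and the orphan receptor GPR160 1.69-fold. Of 23 receptor tyrosine kinases 3 rose and 7 fell (3 and 8 under median scaling over all probes, 6 and 6 over the kept probes). FGFR3 was at least 2.45-fold higher and EGFR rose 1.56-fold. ERBB2 read 8.12, 8.23 and 8.12 (log2) with R1881, against 8.92, 9.17 and 9.06 with vehicle. Its R1881 arrays all lay below its vehicle arrays, and it fell 1.86-fold. DDR1, a collagen receptor, fell 1.82-fold, and EPHA3 2.36-fold. Of 58 secreted ligands and their binding proteins 8 rose and 17 fell (6 and 18 under median scaling over all probes, 11 and 11 over the kept probes). The angiopoietin ANGPT2 was at least 4.25-fold higher, the BMP antagonist NBL1 at least 5.34-fold, VEGFA rose 1.87-fold, IGFBP2 fell 1.74-fold and the KIT ligand KITLG was at least 1.98-fold lower.

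Signal relays inside the cell were as mixed. Among 38 G protein, RGS and arrestin genes 7 rose and 9 fell (3 and 16 under median scaling over all probes, 8 and 6 over the kept probes), with the receptor kinase GRK2 1.43-fold higher and GRK4 2.27-fold and RGS10 1.9-fold lower. Rises among G protein genes numbered 4 without vehicle replicate 2 and 3 without R1881 replicate 3 or vehicle replicate 1 or 3. Cyclic nucleotide genes had 7 of 43 up and 14 down. RAPGEF5 rose 2.62-fold, the anchor AKAP12 was at least 1.78-fold higher, PDE9A, which degrades cGMP, rose 1.7-fold, and the catalytic and regulatory subunits PRKACB and PRKAR1A of protein kinase A fell 1.5-fold and 1.36-fold. In the MAP kinase list 13 of 94 rose and 25 fell, among them RASD1, a steroid-induced RAS relative, 2.27-fold up, MAPK6 2.24-fold up, MAP2K4 1.91-fold up and MAP3K20 2.56-fold down. Phosphoinositide genes had 17 of 63 up and 10 down (7 and 18 under median scaling over all probes, 20 and 8 over the kept probes). SGK1, a kinase that steroid hormones induce, read 7.48, 7.33 and 7.52 (log2) with R1881, against 5.26, 5.09 and 5.07 with vehicle and rose 4.92-fold (log2 2.30 ± 0.11 SE, adjusted p = 1.77e-09). Its relative SGK3 rose 2.06-fold and the phosphatase MTMR9 2.62-fold. PIK3IP1, an inhibitor of PI3 kinase, fell 2.71-fold and the regulatory subunit PIK3R1 1.54-fold. Rises among phosphoinositide genes numbered 10 without vehicle replicate 1. Falls among phosphoinositide genes numbered 6 without vehicle replicate 2.

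Developmental pathways showed opposite moves of related genes. In the WNT list 5 of 42 rose and 11 fell. FZD5 and WNT7B, a receptor and a ligand, rose 3.04-fold and 2.85-fold, each detected on 1 vehicle array. WLS, which carries WNT ligands to the surface, fell 3.23-fold, with -1.38 to -0.52 in log2 on its other kept probes. The nuclear factor LEF1 read 4.92, 5.09 and 4.99 (log2) with R1881, against 6.09, 6.34 and 6.04 with vehicle and fell 2.23-fold. The inhibitor NKD2 fell 2.37-fold and the receptor FZD3 2.27-fold. In the NOTCH list 10 of 29 rose and 6 fell (6 and 8 under median scaling over all probes, 12 and 6 over the kept probes). HES6, a helix-loop-helix factor, read 12.49, 12.40 and 12.53 (log2) with R1881, against 10.15, 10.24 and 10.24 with vehicle and rose 4.81-fold (log2 2.26 ± 0.0821 SE, adjusted p = 1.1e-10). The ligand JAG1 rose 1.72-fold, and the receptor NOTCH3 fell 1.69-fold. In the TGF-beta and BMP list 9 rose and 8 fell of 30 (5 and 12 under median scaling over all probes, 9 and 6 over the kept probes). The ID genes, inhibitors of helix-loop-helix factors, parted. ID2 read 8.62, 8.36 and 8.51 (log2) with R1881, against 6.63, 6.45 and 6.51 with vehicle. It rose 3.92-fold (log2 1.97 ± 0.0883 SE, adjusted p = 9.88e-10). ID3 read 4.55, 4.66 and 4.46 (log2) with R1881, against 6.72, 6.67 and 6.78 with vehicle, with no R1881 array detecting it, and was at least 3.91-fold lower. ID1 fell 1.52-fold with detection on 1 R1881 array. BMPR1B, a BMP receptor, rose 2.29-fold.

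Transcription factors fell more often than they rose in several families, as did all tested genes (21.5% lower and 15.8% higher). The shares lower were 47.1% of nuclear receptors, 38.3% of homeobox genes and 25.9% of the forkhead and related list. In the same order, the shares higher were 11.8%, 8.33% and 16.8%. Of 17 nuclear receptor genes 2 rose and 8 fell (median -0.24, -0.25 to -0.10 from all genes over the scalings). PPARG, a receptor for fatty acids, read 5.46, 5.52 and 5.57 (log2) with R1881, against 6.15, 6.16 and 6.24 with vehicle. It fell 1.59-fold (log2 -0.67 ± 0.0854 SE, adjusted p = 3.52e-05). The retinoic acid receptor RARA fell 1.45-fold and the mineralocorticoid receptor NR3C2 1.99-fold. Rises among nuclear receptors numbered 1 without R1881 replicate 2 or 3 or vehicle replicate 1 or 2. Falls among nuclear receptors numbered 5 without R1881 replicate 1. Of 60 homeobox genes 5 rose and 23 fell, 13 of the falls by at least 1.5-fold (median -0.17, -0.13 to -0.05 from all genes). IRX3 read 9.15, 9.20 and 9.24 (log2) with R1881, against 10.73, 10.75 and 10.89 with vehicle. It fell 3.02-fold, and IRX5, its neighbour on chromosome 16, 2.97-fold. PITX1 fell 2.81-fold, HOXC4 2.27-fold and HOXC13 2.05-fold, and HOXC9 was at least 1.52-fold lower, while MEIS1 rose 1.81-fold and HOPX, an atypical homeobox gene without DNA binding, was at least 1.46-fold higher. Rises among homeobox genes numbered 3 without R1881 replicate 2. Among 143 factors of the forkhead, SOX, GATA, KLF, ETS, helix-loop-helix and related families 24 rose and 37 fell (20 and 50 under median scaling over all probes, 32 and 31 over the kept probes). SPDEF, an ETS factor of luminal cells, read 9.67, 9.48 and 9.54 (log2) with R1881, against 7.61, 7.64 and 7.56 with vehicle and rose 3.89-fold (log2 1.96 ± 0.0747 SE, adjusted p = 1.85e-10). ELK4, also of the ETS family, rose 3.34-fold (0.22 to 1.27 in log2 on its other kept probes). The forkhead gene FOXD4 rose 3.04-fold, and it has near copies whose transcripts its probes may share. MYB fell 3.42-fold (log2 -1.77 ± 0.0776 SE, adjusted p = 8.13e-10), SOX8 2.02-fold and NFKB1 1.9-fold.

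The zinc finger genes, the largest family measured, were more often lower than higher, with 23 of 407 higher and 103 lower (median -0.10, -0.09 to -0.02 from all genes). Their 25.3% lower stands against 21.5% of all genes and their 5.65% higher against 15.8%. ZBTB43 read 5.93, 6.20 and 6.19 (log2) with R1881, against 8.10, 8.08 and 8.16 with vehicle. It fell 4-fold and ZNF84 1.76-fold, while ZNF18 rose 2.91-fold and ZBTB24 1.7-fold. Of 183 splicing factor and RNA helicase genes 10 rose and 50 fell (median -0.15, -0.13 to -0.06 from all genes), 1 and 10 of them by at least 1.5-fold. HNRNPA0, an RNA-binding protein, read 9.42, 9.59 and 9.66 (log2) with R1881, against 10.38, 10.42 and 10.27 with vehicle. It fell 1.74-fold, MBNL2, a regulator of alternative exons, was at least 1.74-fold lower (-0.14 in log2 on its other kept probe), and PTBP2, the neural form of the polypyrimidine tract protein, fell 1.74-fold. Chromatin genes of acetylation, remodelling and the mediator had 13 of 122 up and 36 down (2 and 52 under median scaling over all probes, 19 and 23 over the kept probes, median -0.13). NCOA7 fell 3.86-fold, the remodeller subunit SMARCD3 3.11-fold and the acetyltransferase CREBBP, a coactivator of the androgen receptor, 1.51-fold, while ARID5B rose 1.61-fold. Of 74 histone methylation genes 6 rose and 18 fell. The demethylases KDM6A and KDM5B fell 1.91-fold and 1.59-fold and SUZ12 of the Polycomb complex 1.41-fold, and the methyltransferase KMT5A rose 1.82-fold. Rises among histone methylation genes numbered 3 without vehicle replicate 2.

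Histone genes were more often higher than lower, though not under median scaling over all probes. Of 47 measured 15 rose and 4 fell (median 0.20, 0.11 to 0.25 above all genes over the scalings, with 6 higher and 7 lower under median scaling over all probes). H2BC21 read 10.70, 10.71 and 10.70 (log2) with R1881, against 9.69, 9.77 and 9.65 with vehicle and rose 2-fold (log2 1.00 ± 0.0696 SE, adjusted p = 8.32e-08). H2BC4 rose 1.69-fold and H2BC11 1.61-fold, while the variant MACROH2A2 fell 1.72-fold. Histone copies are near identical, so signal may be shared. Falls among histone genes numbered 2 without R1881 replicate 1 or 2 or vehicle replicate 2 or 3. Of 41 double-strand break and Fanconi repair genes 2 rose and 10 fell (median -0.17, -0.20 to -0.06 from all genes), and BARD1 alone fell by at least 1.5-fold. Its partner BRCA1, added after its value was seen, read log2 -0.17 ± 0.117 SE (adjusted p = 0.288) and was not called, except with median scaling over all probes (adjusted p = 0.02). EXO1 fell 1.4-fold and the kinase ATM 1.37-fold. Rises among repair genes numbered 1 without R1881 replicate 3 or vehicle replicate 2. Falls among repair genes numbered 6 without vehicle replicate 2. Of 224 long non-coding RNA genes 13 rose and 27 fell (4 and 52 under median scaling over all probes, 36 and 22 over the kept probes), below both background shares. The antisense ATP2B1-AS1 fell 2.43-fold and SLC12A2-DT, which starts beside SLC12A2, 1.69-fold. Of 169 small RNA genes 6 rose and 12 fell (1 and 27 under median scaling over all probes, 19 and 9 over the kept probes), with SNORD13 down 1.74-fold, and their probes may read longer precursor or host transcripts. Rises among small RNA genes numbered 3 without vehicle replicate 1 and 2 without vehicle replicate 3.

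In protein turnover single enzymes changed by large folds, and few proteasome genes were called. Of 255 ubiquitin-conjugating enzymes and ligases of the TRIM, RNF, F-box, KLHL, HECT and cullin kinds 51 rose and 52 fell (28 and 87 under median scaling over all probes, 54 and 48 over the kept probes). TRIM51 rose 20.9-fold and TRIM48 9.93-fold (detected on 1 vehicle array), and these primate TRIM genes are near copies. SOCS2, an inhibitor of growth hormone and cytokine signalling, read 10.17, 10.15 and 10.17 (log2) with R1881, against 8.62, 8.50 and 8.47 with vehicle and rose 3.1-fold (log2 1.63 ± 0.0821 SE, adjusted p = 2.96e-09). HERC5, the ligase for ISG15, rose 3.37-fold, while PELI2 fell 2.99-fold, FBXO15 2.03-fold and UBE2L6, which conjugates ISG15, 2.22-fold. Deubiquitinases had 11 of 64 up and 14 down (9 and 19 under median scaling over all probes, 14 and 10 over the kept probes). OTULIN, which removes linear ubiquitin chains, rose 2.49-fold and its neighbour OTULINL 2.62-fold, and USP15 fell 1.74-fold. Of 41 proteasome genes 4 rose and 3 fell (2 and 6 under median scaling over all probes, 7 and 1 over the kept probes), below both background shares. PSMD8 rose 2.87-fold, PSMA6 1.46-fold and PSME1, of the immune activator, fell 1.39-fold. Falls among proteasome genes numbered 1 without vehicle replicate 2 or 3. Heat shock, DNAJ and FKBP chaperones split 14 up and 14 down of 85 (6 and 23 under median scaling over all probes, 16 and 10 over the kept probes). The prolyl isomerases FKBP11 and FKBP2 rose 2.32-fold and 1.69-fold, the co-chaperone DNAJC3 2.1-fold and HSPA13, of the HSP70 family, 1.72-fold. HSPA4L, a cytosolic relative of HSP110, fell 2.43-fold. Falls among chaperones numbered 9 without vehicle replicate 2 or 3 and 7 without R1881 replicate 2.

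Proteases and their inhibitors followed no common direction. Of 44 serine proteases, serpins and related peptidases 10 rose and 10 fell (8 and 13 under median scaling over all probes, 11 and 7 over the kept probes). After the kallikreins and TMPRSS2, the thrombin inhibitor SERPINE2 rose 3.07-fold (log2 1.62 ± 0.0935 SE, adjusted p = 1.24e-08). SERPINB5 (maspin) fell 2.01-fold and HTRA1, a secreted protease, was at least 2.33-fold lower. Of 57 metalloproteases, cystatins and cathepsins 9 rose and 15 fell (5 and 17 under median scaling over all probes, 14 and 12 over the kept probes). The metalloprotease inhibitor TIMP2 read 6.70, 6.47 and 6.55 (log2) with R1881, against 8.15, 8.30 and 7.88 with vehicle and fell 2.9-fold (log2 -1.54 ± 0.126 SE, adjusted p = 4.66e-07). MMP16 fell 4.08-fold (-0.94 in log2 on its other kept probe) and cathepsin CTSH 1.65-fold, while ADAMTS1 and ADAM9 rose 1.66-fold and 1.94-fold. Rises among these proteases numbered 5 without vehicle replicate 1.

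Genes of the cytoskeleton and of cell contacts moved in both directions. Of 23 genes of keratins, desmosomes and other intermediate filaments 9 rose and 6 fell (6 and 7 under median scaling over all probes, 10 and 5 over the kept probes). The simple epithelial keratins KRT8 and KRT18 pair with each other. KRT8 read 10.67, 10.58 and 10.57 (log2) with R1881, against 8.49, 8.63 and 8.42 with vehicle. KRT18 read 8.93, 8.79 and 8.89 (log2) with R1881, against 7.07, 7.33 and 7.27 with vehicle. Every R1881 array lay above every vehicle array for both, and they rose 4.27-fold and 3.13-fold. KRT19 was at least 1.93-fold higher, the desmosomal cadherins DSC2 and DSG2 rose 1.63-fold and 1.4-fold and the plakophilin relative PKP4 fell 1.77-fold. Junction and cadherin genes had 12 of 69 up and 18 down (8 and 25 under median scaling over all probes, 15 and 12 over the kept probes), with CLDN8 2.67-fold and the giant cadherin FAT1 1.76-fold higher and the polarity genes PARD6G 1.88-fold and LLGL1 1.84-fold lower. In the list of integrins, collagens and other matrix genes 11 of 70 rose and 21 fell (8 and 27 under median scaling over all probes, 13 and 16 over the kept probes). Laminin chains parted: LAMA1 was at least 2.06-fold higher and LAMA5 fell 1.69-fold. The integrin ITGAV rose 1.94-fold and the collagen prolyl hydroxylase P4HA1 1.84-fold. Collagen COL5A2 and syndecan SDC4 fell 3.81-fold and 4.04-fold, each detected on 2 R1881 arrays.

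Actin genes had 22 of 100 up and 23 down (13 and 30 under median scaling over all probes, 24 and 16 over the kept probes). CAPZB, which caps filament ends, read 9.10, 9.36 and 9.33 (log2) with R1881, against 7.92, 7.92 and 7.98 with vehicle and rose 2.51-fold (log2 1.33 ± 0.0835 SE, adjusted p = 2.93e-08). Tropomyosin TPM1 rose 1.93-fold and the binding protein LIMCH1 2.53-fold, whereas the nucleator COBL fell 2.65-fold, the non-muscle myosin MYH10 2.22-fold, the bundling protein FSCN1 2.22-fold and thymosin TMSB4X 1.85-fold. Of 162 genes of microtubules, their motors, centrosomes and cilia 28 rose and 53 fell (median -0.15, -0.14 to -0.05 from all genes). TUBA3E, 1 of several near-identical tubulin genes, was at least 14.1-fold higher, MAP7D1 rose 2.41-fold, BBS4 of the ciliary BBSome 2.63-fold and the dynein light chain DYNLL2 2.18-fold. The neuronal tubulin TUBB4A fell 2.2-fold and the microtubule destabilizer STMN3 1.64-fold. Of 191 tetraspanin, annexin, S100, EMP and TMEM genes 42 rose and 38 fell (21 and 59 under median scaling over all probes, 54 and 34 over the kept probes). S100P was at least 3.91-fold higher, the annexin ANXA1 at least 2.85-fold, S100A11 rose 2.51-fold and EMP1 was at least 2.39-fold higher, while TMEM158 fell 3.29-fold, LAPTM4B 2.85-fold and tetraspanin TSPAN3 2.48-fold.

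B2M, the common light chain of MHC class I, read 10.84, 10.91 and 10.96 (log2) with R1881, against 9.56, 9.46 and 9.48 with vehicle. It rose 2.64-fold (log2 1.40 ± 0.082 SE, adjusted p = 1.44e-08). Of 28 antigen presentation genes 5 rose and 6 fell (2 and 11 under median scaling over all probes, 5 and 5 over the kept probes): HLA-DMA rose 1.93-fold, and HLA-E fell 1.36-fold. HLA genes are alike enough that their probes may share signal. Rises among antigen presentation genes numbered 3 without R1881 replicate 1 or 2 or vehicle replicate 2 or 3. Interferon-induced genes had 7 of 33 up and 9 down. HERC5, HERC6 (1.79-fold) and GBP2 (1.76-fold) rose, and IFI27L2 fell 1.63-fold and MX1 2.47-fold, with MX1 detected on 1 R1881 array. Rises among interferon genes numbered 4 without R1881 replicate 2 or 3 and 3 without vehicle replicate 2. In the list of cytokines, their receptors, complement and acute phase genes 13 of 73 rose and 17 fell (9 and 22 under median scaling over all probes, 19 and 15 over the kept probes). After the orosomucoids, TNFAIP8 rose 3.53-fold, the NF-kappaB inhibitor NFKBIA 1.92-fold and the death receptor TNFRSF10B 2.07-fold, while the interleukin 1 antagonist IL1RN was at least 1.8-fold lower and TNFRSF21 fell 2.24-fold.

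Markers of the luminal cell and of other cell types were read as well, and their part in the results above was not tested. Of 13 luminal markers 10 were tested, 4 rose and 4 fell (4 and 6 under median scaling over all probes, 4 and 2 over the kept probes): SPDEF and the 3 keratins rose, and FOLH1 fell 1.78-fold, HOXB13 1.45-fold, CDH1 1.28-fold and EPCAM 1.25-fold. The call of CDH1 was lost with median scaling over the kept probes (adjusted p = 0.0667), and that of EPCAM under 5 alternatives, among them without R1881 replicate 2 (adjusted p = 0.0983) or vehicle replicate 2 (adjusted p = 0.0858). FOXA1 (log2 -0.19 ± 0.0708 SE, adjusted p = 0.0546) and ACP3 (log2 -0.23 ± 0.0981 SE, adjusted p = 0.0875) were not called. FOXA1 was called lower under 6 alternatives, with adjusted p from 0.00688 to 0.0463. ACP3 was called lower with median scaling over all probes (adjusted p = 0.0229), in the authors' deposited table (adjusted p = 0.00948) and without vehicle replicate 1 (adjusted p = 0.0446). Without R1881 replicate 1, 2 or vehicle replicate 1, 2 CAV2 was not called, with adjusted p from 0.0567 to 0.127. Of 11 basal markers 3 were tested and 1 fell, CAV2 (1.35-fold, a call lost under 8 alternatives), and KRT5, KRT14, KRT15, KRT17 and TP63 were not among the tested genes. Of 12 stromal markers 4 were tested and 1 rose, ACTA2 (1.93-fold), with VIM at log2 -0.03 ± 0.0819 SE (adjusted p = 0.798). Of 15 immune and endothelial markers 3 were tested and 1 fell, VWF (2.26-fold), and PTPRC, the pan-leukocyte antigen, was at log2 0.12 ± 0.15 SE (adjusted p = 0.579). Of 19 neuroendocrine markers 5 were tested: DDC fell 20.3-fold, the neuronal enolase ENO2 fell 2.44-fold, UCHL1 was at least 1.34-fold higher, and SYT4 (log2 -0.20 ± 0.082 SE) and STMN2 (log2 -0.09 ± 0.139 SE) were not called.

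Some genes crossed the detection limit. The R1881 arrays detected 17479 probes on average and the vehicle arrays 18307. What this adds to the counts that follow was not tested. Of the 11517 tested genes, 94 were detected on all 3 R1881 arrays and on no vehicle array, and 199 on all 3 vehicle arrays and on no R1881 array. Those gained included SNAI2, a zinc finger factor known from cell migration, at least 7.41-fold higher (1.77 in log2 on its other kept probe), the glucose carrier SLC2A3 at least 8.85-fold and TARP, a transcript of the T cell receptor gamma locus made in prostate cells, at least 5.63-fold. TARP read 7.12, 7.25 and 7.22 (log2) with R1881, against 4.44, 4.44 and 4.54 with vehicle. Those lost included COLCA1, at least 9.67-fold lower, the intestinal sucrase-isomaltase SI at least 3.41-fold, the glucagon gene GCG at least 2.5-fold, the kainate receptor GRIK1 at least 2.75-fold (-0.86 in log2 on its other kept probe), the cell adhesion gene HEPACAM at least 2.92-fold, the extracellular protease TLL1 at least 2.68-fold and REEP1, which shapes the ER, at least 2.4-fold. SI read 4.65, 4.28 and 4.73 (log2) with R1881, against 6.41, 6.77 and 6.39 with vehicle. Each bound sets the group that detected the gene against the lowest level of any detected probe on the arrays of the other group. Leaving out 1 array gave between 114 and 132 genes gained and between 237 and 313 lost, with 313 lost without vehicle replicate 1. With fewer arrays to meet the rule all of the 94 and 199 genes still qualify, so these counts could not fall.

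The letters of the androgen response element were looked for near gene starts. The element in its full form, AGAACA, 3 bases of any kind and TGTTCT, searched on both strands, was in none of the 9262 promoters of tested genes that the RefSeq table (GRCh38.p14) gives, each 250 bases before to 50 after the start. Its arm AGAACA, on either strand, was in 9.16% of them. The share was 8.42% among the 1509 promoters of genes called higher and 8.56% among the 2020 of genes called lower. Of genes at least 2-fold higher, 8.33% of 228 promoters held it. Of genes at least 2-fold lower, 12.4% of 186 did, which is 23 promoters. These shares were not tested against each other. A match is a description of letters, and no match says only that they are not in this window. Below are the 250 bases before the start of 2 genes that rose, KLK3 and STK39, and of 2 that fell, COLCA1 and UGT2B15, shown, after their values were seen, because their change was at least 4-fold (KLK3 at least 7.81-fold higher) and each holds the arm, which is in capitals. Other genes changed at least 4-fold also hold the arm in their promoter, among them FKBP5 and PMEPA1, which rose, and SLC44A1 and SLITRK3, which fell. The KLK3 stretch is chr19:50854665-50854914 on the plus strand (GRCh38.p14). The STK39 stretch is chr2:168247596-168247845 on the minus strand (GRCh38.p14). The COLCA1 stretch is chr11:111305049-111305298 on the minus strand (GRCh38.p14). The UGT2B15 stretch is chr4:68670653-68670902 on the minus strand (GRCh38.p14).
KLK3: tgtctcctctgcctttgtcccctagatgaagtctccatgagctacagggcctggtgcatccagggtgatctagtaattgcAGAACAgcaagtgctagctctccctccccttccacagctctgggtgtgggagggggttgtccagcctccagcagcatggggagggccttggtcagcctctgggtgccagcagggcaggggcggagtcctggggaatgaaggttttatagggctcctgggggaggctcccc
STK39: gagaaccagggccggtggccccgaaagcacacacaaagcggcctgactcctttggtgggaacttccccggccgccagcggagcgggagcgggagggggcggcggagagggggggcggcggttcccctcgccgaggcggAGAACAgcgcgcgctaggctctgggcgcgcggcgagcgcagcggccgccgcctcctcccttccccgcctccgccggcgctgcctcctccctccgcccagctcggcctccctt
COLCA1: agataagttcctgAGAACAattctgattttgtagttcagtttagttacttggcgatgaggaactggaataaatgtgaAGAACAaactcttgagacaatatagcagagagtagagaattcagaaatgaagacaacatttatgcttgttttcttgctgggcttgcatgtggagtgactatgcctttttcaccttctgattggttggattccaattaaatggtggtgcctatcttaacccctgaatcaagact
UGT2B15: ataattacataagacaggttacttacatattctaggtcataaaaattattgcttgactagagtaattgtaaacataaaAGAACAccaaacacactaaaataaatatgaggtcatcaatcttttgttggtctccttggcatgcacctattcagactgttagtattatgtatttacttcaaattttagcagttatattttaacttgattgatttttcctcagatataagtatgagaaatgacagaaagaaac

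On the 6 arrays with Torin 1, which share no array with those above, the same change can be read a further time, as R1881 plus Torin 1 against Torin 1. Both readings come from the same fit, normalization, probe choice and estimate of each gene's spread, so their calls are not independent. R1881 moved 5191 genes there (45.1%). Of the 4289 genes called without Torin 1, 3813 changed in the same direction with it, 2892 of them at an adjusted p under 0.05, and 115 were called in the opposite direction. Of the 522 genes moved by at least 2-fold without Torin 1, 516 changed in the same direction there, 495 of them at an adjusted p under 0.05, and 1 was called in the opposite direction. Across all tested genes the log2 changes correlated with r = 0.803, where genes are not independent replicates. The response differed between the settings for 1721 genes (limma interaction, adjusted p under 0.05, 14.9% of those tested), 182 of them by at least 2-fold. Of the 9810 genes detected in all 4 groups, 1515 differed, 144 by at least 2-fold. KDELR3 rose 1.43 in log2 with Torin 1 present (difference 0.23 ± 0.166 SE, adjusted p = 0.392, in log2, with Torin 1 minus without), PDIA5 2.19 in log2 (difference 0.43 ± 0.117 SE, adjusted p = 0.0258) and B2M 2.02 in log2 (difference 0.62 ± 0.116 SE, adjusted p = 0.00312). SLC12A2 changed by -0.66 with Torin 1 (difference 1.31 ± 0.17 SE, adjusted p = 0.000226), LTN1 by -2.07 (difference 0.57 ± 0.142 SE, adjusted p = 0.0174) and BARD1 by -2.73 (difference -0.26 ± 0.105 SE, adjusted p = 0.122). Among the 10 largest rises, TRIM51 rose 5.91 in log2 with Torin 1 (difference 1.52 ± 0.124 SE, adjusted p = 5.47e-06).

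**Figure D5:**
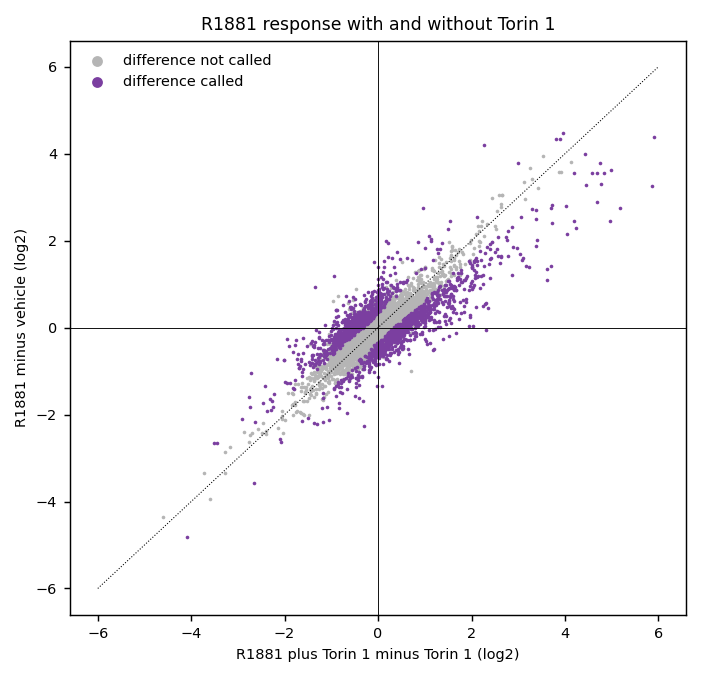
Log2 change with R1881 on the arrays with Torin 1 (horizontal axis) and without it (vertical axis) for all tested genes, with genes called for the difference of the 2 changes in purple and the rest in grey. Most of the 522 genes moved at least 2-fold without Torin 1 lie on the same side of 0 on both axes.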

How the data were processed

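RNA purified with an RNeasy kit was hybridised to Illumina HumanHT-12 V4 arrays, per the labels. The deposited table holds an intensity per probe, not normalized between arrays. It also holds a detection p-value per probe and array, per the file headers. The authors' own processed values were deposited on a log2 scale, with medians between 6.187 and 6.217 on the 12 arrays, by a normalization not given in the sources used here. All 12 of those columns matched their own array best (r of at least 0.997), and they served as an alternative. Gene names came from GEO's platform annotation: of 47323 probes 30113 have 1 symbol, 8 several and 17202 none.

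Intensities were background-corrected by normexp using the detection p-values, with an offset of 16, taken to log2 and quantile normalized. Probes were kept when detected at p under 0.05 on at least 3 of 12 arrays, and the brightest gave its gene's value. limma 3.58.1 in R 4.3.3 fitted 4 group means on 12 arrays (8 residual degrees of freedom), with Benjamini-Hochberg adjustment over all 11517 genes and calls at an adjusted p under 0.05. Of these genes 2894 had several kept probes, and 26 called genes had another probe called in the opposite direction. The fit was tested on simulated data. No 2 of the 6 arrays held identical values.

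The replicate numbers did not pair the samples: after removing group means, same-numbered R1881 and vehicle arrays correlated with r of -0.00354, -0.102 and -0.135. No block was used. Genes named are drawn from the 25 that rose most and the 25 that fell most, the 6 called members of each list with the smallest adjusted p in each direction, the 15 genes gained and 15 lost with the largest bounds, and marker lists. The text gives a selection of these, made with their values known. Members and gene lists were chosen with earlier results of these data known. A fold against a group that detected a gene on no array is a lower bound, computed from means of normalized log2 values. Alternatives were other background corrections, scalings, filters, probe rules, samples in the fit, a replicate block and each replicate left out.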

Additional observations from a re-analysis of the deposited data

Results flagged for a closer look

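Of the 10 largest rises and 10 largest falls, 1 gene detected in all 4 groups answered R1881 differently on the arrays with Torin 1 by at least 1 in log2 at an adjusted p under 0.05 in limma's interaction. The change of TRIM51 was greater with Torin 1 by 1.52 in log2 (adjusted p = 5.47e-06). It has near copies in the genome whose transcripts may reach the same probe.

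Probes without a single gene name enter none of the gene comparisons above. Of 5276 such probes kept, 486 were higher and 520 lower with R1881 (19.1% called). The largest rise, of ILMN_1663787, was 5.25 in log2, with 10.31, 10.30 and 9.97 on the R1881 arrays, against 4.93, 4.69 and 5.21 on the vehicle arrays. The largest fall, of ILMN_2371458, was -2.22 in log2.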

How the results depend on the processing

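The count of 4289 called genes lay between 4010 and 4567 under the 11 alternatives that kept all replicates, and between 3659 and 3927 with 1 replicate left out. With the replicate block, which the pairing check did not call for, it was 4163. The 1460 genes called with at least 1.5-fold became 866 with an offset of 50, 611 without background correction and 787 in the authors' processed table, and the cause was not tested. They numbered between 1437 and 1539 with 1 replicate left out. The 1721 genes with a different response under Torin 1 became 817 with median scaling over all probes. Genes lost above background, 199, numbered between 237 and 313 with 1 replicate left out and 239 at a detection p under 0.01, and those gained between 114 and 132, and 89 at that limit. Leaving out a replicate loosens the rule for genes gained or lost, so those counts could not fall below the main ones. Median scaling over the kept probes was chosen after seeing the data. Of 331 named genes that were called, 328 kept direction and call under all 17 alternatives, the exceptions being CAV2, CDH1 and EPCAM. Most named genes were picked for large changes or small adjusted p in these data. That choice favours calls that last, so the count says little about other called genes. Among genes not called, leaving out 1 replicate gave PTPRC between -0.09 and 0.23 in log2, VIM between -0.11 and 0.01 and STMN2 between -0.23 and 0.07. VIM turned sign without R1881 replicate 2 (0.00) or 3, PTPRC without R1881 replicate 2, and STMN2 without vehicle replicate 1 and, at 0.10, with median scaling over kept probes. Signal over background limits the dimmest genes: 82 tested genes were detected on none of these 6 arrays.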
